A study of Mus musculus with 6 samples.

Results

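Transcript levels of the proteasome subunits and of their assembly factors and regulators were compared between mouse primary hippocampal neurons given microglial apoE particles and neurons given astrocytic apoE particles. The set was taken by gene name (Psma, Psmb, Psmc, Psmd, Psme, Psmf or Psmg followed by a number) and by a log2 value of at least 3.32 in 3 or more of the 6 libraries. Of 47593 symbols in the tables, 49 carried such a name and 47 reached that level. Psme2b, a copy of Psme2, was the member nearest the limit, at 3.47 to 3.52. The 2 symbols outside it were Psmb11, the thymus subunit, at -0.29 to -0.28, and Psma8, the testis subunit, at -1.97 to -1.96.

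The neurons were wild-type (WT) cells of the hippocampus, grown in Neurobasal medium with B27 and GlutaMAX. They received 6 µg/mL of particles at culture day 10 and were harvested 24 h later, with 3 samples per group. The labels state no age of the animals and do not tell whether samples are separate cultures, so p-values measure the spread between these samples, which may be technical. Cells without particles were not analysed here, and every direction is microglial relative to astrocytic apoE.

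The proteasome degrades proteins tagged with ubiquitin. Its 20S core is a barrel of outer alpha and inner beta rings in which Psmb5, Psmb6 and Psmb7 carry the proteolytic sites, and the 19S cap recognises, unfolds and feeds substrates through a ring of ATPases. Interferons induce the replacement subunits Psmb8 (in place of Psmb5), Psmb9 (for Psmb6) and Psmb10 (for Psmb7), which form the immunoproteasome, and the PA28 activator genes Psme1 and Psme2. These forms favour peptides that fit MHC class I molecules. Neurons hold mainly the constitutive form and use it in synaptic protein turnover.

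Promoter windows of 4 of the members are shown first. Those of Psme2, the member with the largest difference, and of Psmb10 are not shown. They held no match to the motifs searched. RefSeq windows on GRCm38.p6 run from 250 bases before to 50 bases after a start site, and 40 of the 47 members had one. The first is Psmb8 (chr17:34197945-34198244, plus strand), the inducible catalytic gene with the largest difference, with a GAS match in capitals. The second is Psme1 (chr14:55578244-55578543, plus strand), an activator gene, with an ISRE core match in capitals. The third is Psmb5 (chr14:54617946-54618245, minus strand), the constitutive catalytic gene that differed most, with an ARE core match in capitals. The fourth is Psmb9 (chr17:34187281-34187580, minus strand), where capitals mark the bases from the start site of Tap1, on the opposite strand, to that of Psmb9.
Psmb8: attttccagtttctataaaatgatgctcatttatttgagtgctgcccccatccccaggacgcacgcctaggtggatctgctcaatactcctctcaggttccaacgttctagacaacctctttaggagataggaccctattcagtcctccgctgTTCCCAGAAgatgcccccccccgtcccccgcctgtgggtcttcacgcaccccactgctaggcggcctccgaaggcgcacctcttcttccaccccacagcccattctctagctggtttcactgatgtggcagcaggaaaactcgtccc
Psme1: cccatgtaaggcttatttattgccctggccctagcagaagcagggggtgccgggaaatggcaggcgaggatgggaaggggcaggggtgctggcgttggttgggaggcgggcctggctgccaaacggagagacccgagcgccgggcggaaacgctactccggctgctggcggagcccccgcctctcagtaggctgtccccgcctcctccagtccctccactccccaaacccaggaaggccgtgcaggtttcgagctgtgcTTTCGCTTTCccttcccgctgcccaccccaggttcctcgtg
Psmb5: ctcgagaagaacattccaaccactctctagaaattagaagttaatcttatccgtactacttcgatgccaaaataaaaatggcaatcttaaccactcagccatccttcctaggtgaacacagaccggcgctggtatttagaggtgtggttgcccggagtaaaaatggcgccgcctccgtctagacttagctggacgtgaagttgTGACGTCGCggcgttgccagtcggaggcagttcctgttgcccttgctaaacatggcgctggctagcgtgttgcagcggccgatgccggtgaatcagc
Psmb9: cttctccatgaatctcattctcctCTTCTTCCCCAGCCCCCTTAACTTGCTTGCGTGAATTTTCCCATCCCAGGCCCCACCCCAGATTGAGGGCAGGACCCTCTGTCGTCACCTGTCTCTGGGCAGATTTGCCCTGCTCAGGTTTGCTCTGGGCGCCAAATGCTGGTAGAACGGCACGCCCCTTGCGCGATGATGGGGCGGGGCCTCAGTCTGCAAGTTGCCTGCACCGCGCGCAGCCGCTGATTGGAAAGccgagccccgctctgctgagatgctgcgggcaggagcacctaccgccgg

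The ISRE core, a promoter element of interferon-responsive genes, was searched as GAAA followed, after any 2 bases, by GAAA. The GAS element, another interferon-responsive sequence, was searched as TTCNNNGAA, and the antioxidant response element (ARE) core of the NRF factors as TGACNNNGC, each on both strands. The ISRE core was present in 3.44% of all 32851 windows and in the windows of 5 members, namely Psme1, Psmb3, Psmd4, Psmd9 and Psmg4. GAS was present in 8.30% of windows and in those of Psmb8, Psmd2 and Psmg1. The ARE core was present in 12.4% of windows and in those of Psmb5, Psmb6, Psmc6, Psmd9, Psmd12 and Psme4. The windows of Psmb9, Psmb10 and Psme2 held none of these letters, which says only that the spellings searched are not in them. The start sites of Psmb9 and Tap1, a peptide transporter gene, lay 226 bases apart, and their windows shared 275 bases.

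All 5 interferon-inducible subunits rose with microglial apoE, by 1.12-fold to 1.35-fold (median 0.33 on the log2 scale). Over all 15055 genes tested, 13.0% were called higher (Benjamini-Hochberg adjusted p under 0.05 in limma) and the median log2 fold change was -0.0006. In each of the 5 genes the 3 microglial apoE libraries stood above the 3 astrocytic ones, which was so for 20.1% of genes tested. All 5 calls were kept under each of the 13 alternative settings.

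Psme2, the beta subunit of PA28 (GRCm38 chromosome 14, 55587441 to 55591113), stood at log2 values of 9.40, 9.40 and 9.46 with astrocytic apoE and at 9.84, 9.88 and 9.85 with microglial apoE. All 3 microglial apoE libraries were above all 3 astrocytic ones, and the SDs within the groups were 0.034 and 0.022. The difference was 1.35-fold (log2 fold change 0.43 ± 0.030 SE, adjusted p = 2.1e-11). Psme1, the alpha subunit of the same ring, is 5911 bases away on the opposite strand (55578123 to 55581529). Its values were 9.72, 9.72 and 9.76 with astrocytic and 10.04, 10.10 and 10.04 with microglial apoE. Both PA28 genes thus had 3 high and 3 low libraries along the treatment, and Psme1 rose 1.25-fold (0.33 ± 0.029 SE, adjusted p = 3.3e-09).

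Psmb8, the inducible chymotrypsin-like subunit (chromosome 17, 34197721 to 34201454, in the MHC region), stood at 6.05, 6.11 and 6.12 with astrocytic and at 6.42, 6.62 and 6.54 with microglial apoE. It was the most variable of the 5, with an SD of 0.10 in the microglial group, where replicate 1 was the lowest, and its groups did not overlap. Psmb8 shares 498 exon bases with Gm20496, which was near the bottom of the scale in all libraries (-1.97 to -1.96). It rose 1.35-fold (0.43 ± 0.043 SE, adjusted p = 2.1e-05). Psmb10, the inducible trypsin-like subunit (chromosome 8, 105935735 to 105938444), stood at 8.34, 8.38 and 8.45 against 8.68, 8.74 and 8.66, again without overlap. It rose 1.24-fold (0.30 ± 0.033 SE, adjusted p = 1.1e-07).

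Psmb9, the inducible caspase-like subunit (chromosome 17, 34181987 to 34187764), had the smallest rise of the 5. Its values were 5.57, 5.61 and 5.60 with astrocytic and 5.72, 5.78 and 5.79 with microglial apoE, a 1.12-fold difference (0.17 ± 0.023 SE, adjusted p = 4.5e-06). It was also the weakest of the 5. At log2 values of 4 to 6 the median SD within a group was 0.022, below the 0.255 that counting alone would give if 2^value were a count, and how far the scale reduces fold changes of weak genes was not tested. Psmb9 shares 212 exon bases with Tap1, and the strand setting of the counting is not given in the sources used here, so its value is uncertain. Tap1 itself stood at 8.64 to 8.73 with astrocytic and at 9.53 to 9.62 with microglial apoE.

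**Figure D1:**
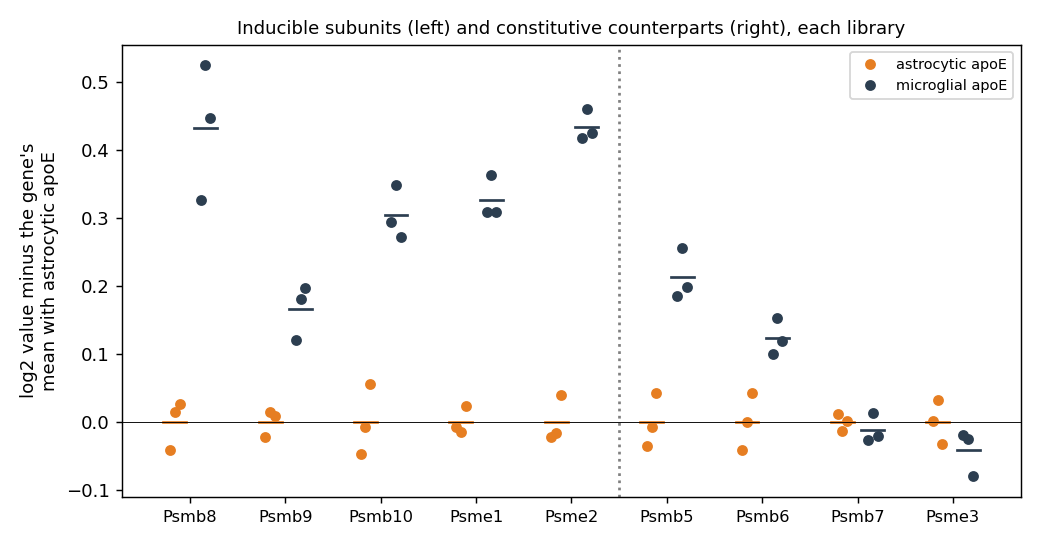
Log2 value of each library minus the gene's mean with astrocytic apoE (vertical axis, log2 units) for the inducible subunits at left and constitutive counterparts at right. Points are libraries and short lines are group means (n = 3). The 5 inducible genes, Psmb5 and Psmb6 have no overlap between groups, while the groups of Psmb7 and Psme3 overlap.

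The constitutive counterparts differed from one another. Psmb5, the chymotrypsin-like subunit that Psmb8 replaces (chromosome 14, 54614119 to 54618022), stood at 10.47, 10.50 and 10.55 with astrocytic and at 10.70, 10.77 and 10.71 with microglial apoE. It rose 1.16-fold (0.21 ± 0.030 SE, adjusted p = 5.4e-06). Psmb6, the caspase-like subunit (chromosome 11, 70525367 to 70527858), stood at 11.19, 11.23 and 11.27 against 11.33, 11.38 and 11.35. It rose 1.09-fold (0.12 ± 0.029 SE, adjusted p = 0.0022).

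Psmb7, the trypsin-like subunit (chromosome 2, 38588036 to 38644087), had overlapping groups, at 10.93, 10.91 and 10.92 with astrocytic and 10.89, 10.93 and 10.90 with microglial apoE. Its log2 fold change was -0.01 ± 0.027 SE (adjusted p = 0.80). It shares 405 exon bases with Nek6 on the other strand, a gene at 11.53 to 11.56 with astrocytic and 11.70 to 11.77 with microglial apoE, so Psmb7 is uncertain. Psme3, which encodes PA28 gamma, the nuclear relative of the inducible activator (chromosome 11, 101316213 to 101323537), overlapped as well, at 11.38, 11.41 and 11.35 against 11.36, 11.36 and 11.30. Its log2 fold change was -0.04 ± 0.028 SE (adjusted p = 0.31).

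Each inducible gene was set against its counterpart within the same library, so that the scaling of a library cancels. A reduction of fold changes in weak genes would not cancel, and Psmb8 and Psmb9 are far weaker than their counterparts. How far it affects the ratios and their order was not tested. The log2 ratio of Psme2 over Psme3 was -1.98, -2.01 and -1.89 with astrocytic and -1.52, -1.48 and -1.46 with microglial apoE, a difference of 0.48. Psme1 over Psme3 stood at -1.66, -1.70 and -1.59 against -1.32, -1.26 and -1.26, a difference of 0.37. Both PA28 genes therefore gained on the gene of PA28 gamma in every microglial apoE library. Psmb10 over Psmb7 stood at -2.59, -2.53 and -2.48 against -2.21, -2.20 and -2.24, a difference of 0.32. Psmb8 over Psmb5 stood at -4.42, -4.39 and -4.43 against -4.27, -4.15 and -4.17, a difference of 0.22, with Psmb5 itself higher in the microglial group. Psmb9 over Psmb6 differed least, at -5.61, -5.62 and -5.66 against -5.61, -5.60 and -5.55. That difference was 0.042, and it was 0.026 without astrocytic replicate 3 and 0.024 without microglial replicate 3. The libraries of the groups did not overlap in any of the 5 ratios, in that of Psmb9 by a margin below the second decimal. Each exact permutation test, two-sided, gave p = 0.10, and 0.10 after Benjamini-Hochberg adjustment over the 5 pairs, which is the smallest p that this test can give with 3 against 3 samples, so it could not pass 0.05 for any ratio.

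**Figure D2:**
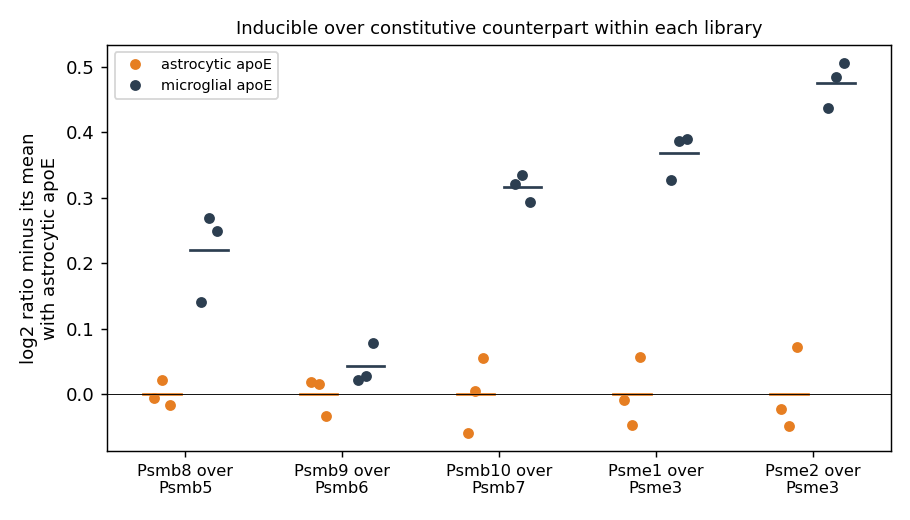
Log2 ratio of each inducible gene over its counterpart in each library, minus the mean ratio with astrocytic apoE (vertical axis, log2 units). Points are libraries and short lines are group means (n = 3). The ratio of Psme2 over Psme3 moved most (0.48) and that of Psmb9 over Psmb6 least (0.04).

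The constitutive core and cap had small differences, more of them upwards than downwards. Of 31 constitutive 20S and 19S subunits, 15 rose with microglial apoE, 1 fell and 15 were not called, and the median was 0.08 on the log2 scale, against 0.33 for the inducible genes. The fold changes ranged from -0.08 to 0.22, and the highest of them exceeded the lowest of the inducible genes, that of Psmb9. Of all genes tested, 24.9% were called in either direction, 13.0% higher and 11.8% lower. The groups did not overlap in 21 of the 31, with microglial apoE above in 20 and below in 1, against 20.1% and 18.8% of all genes tested.

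In the 20S beta ring 4 of 7 rose and 0 fell. Beside Psmb5 and Psmb6 these were Psmb2 (0.12 ± 0.030 SE, adjusted p = 0.0059) and Psmb4 (0.10 ± 0.030 SE, adjusted p = 0.011), structural subunits of the ring. Among those not called, Psmb1 had 0.08 (adjusted p = 0.056) and Psmb3 had 0.05 (adjusted p = 0.21).

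The alpha ring, whose 7 subunits form the gate of the barrel, was mixed, with 2 higher and 1 lower. Psma5 (0.10 ± 0.029 SE, adjusted p = 0.011) and Psma6 (0.08 ± 0.027 SE, adjusted p = 0.035) rose. Psma4 fell, from 11.18, 11.16 and 11.16 with astrocytic to 11.10, 11.10 and 11.06 with microglial apoE (-0.08 ± 0.027 SE, adjusted p = 0.031). It was the only member of the 47 called lower. The other 4 lay between -0.04 (Psma1) and 0.04 (Psma7). The count of rising 20S genes, 6 of 14, fell to 3 without astrocytic replicate 1 and to 3 without astrocytic replicate 2.

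In the 19S cap 9 of 17 rose and 0 fell, and the median log2 fold change was 0.09. Of the 6 ATPases that unfold substrates, 5 rose. Psmc5 led them, at 10.65, 10.70 and 10.66 with astrocytic and at 10.87, 10.92 and 10.87 with microglial apoE. Its groups lay 0.22 ± 0.028 SE apart, 1.17-fold (adjusted p = 1.5e-06), the highest value of any constitutive subunit. The others were Psmc4 (0.12), Psmc2 (0.12), Psmc1 (0.11) and Psmc3 (0.09), with SEs of 0.027 to 0.029. Psmc6 stood apart from the other ATPases with -0.06 ± 0.029 SE (adjusted p = 0.14), and it passed as lower without astrocytic replicate 3 (adjusted p = 0.014).

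Of the 11 non-ATPase subunits 4 rose. Psmd4, a ubiquitin receptor of the cap, stood at 11.48, 11.45 and 11.51 with astrocytic and at 11.61, 11.65 and 11.63 with microglial apoE, 1.11-fold higher (0.15 ± 0.027 SE, adjusted p = 0.00018). Psmd2 (0.11), a large scaffold subunit, Psmd11 (0.11) and Psmd3 (0.09) rose as well. The other 7 ranged from -0.02 (Psmd1, the other large scaffold) to 0.07 (Psmd14, the deubiquitinase of the cap, adjusted p = 0.079).

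Assembly factors went up in part. Of the 4 chaperones that build the 20S rings, Psmg4 rose 1.13-fold, from 8.37, 8.39 and 8.46 to 8.61, 8.60 and 8.53 (0.17 ± 0.033 SE, adjusted p = 0.00028). Psmg3 rose by 0.08 ± 0.027 SE (adjusted p = 0.030), while Psmg1 had 0.08 (adjusted p = 0.053) and Psmg2 0.04 (adjusted p = 0.48). Of the 3 chaperones of the 19S base, 0 were called by limma, with or without the trend and robust options, and 0 had an unadjusted p under 0.05. Psmd10, or gankyrin, had 0.06 ± 0.030 SE (adjusted p = 0.14), Psmd9 0.02 and Psmd5 -0.01. The unadjusted limma p of Psmd10 was 0.0503. Its microglial apoE libraries all stood above its astrocytic ones, as in 20.1% of genes tested.

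Psmf1, which encodes the 20S-binding protein PI31, rose from 9.87, 9.93 and 9.93 to 10.00, 10.03 and 10.00 (0.10 ± 0.029 SE, adjusted p = 0.010). Psme4, the nuclear activator PA200, had 0.04 ± 0.029 SE (adjusted p = 0.31). Psme2b had 0.01 ± 0.013 SE (adjusted p = 0.63). It is a copy of Psme2, and whether reads were divided between Psme2b and Psme2 was not tested.

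**Figure D3:**
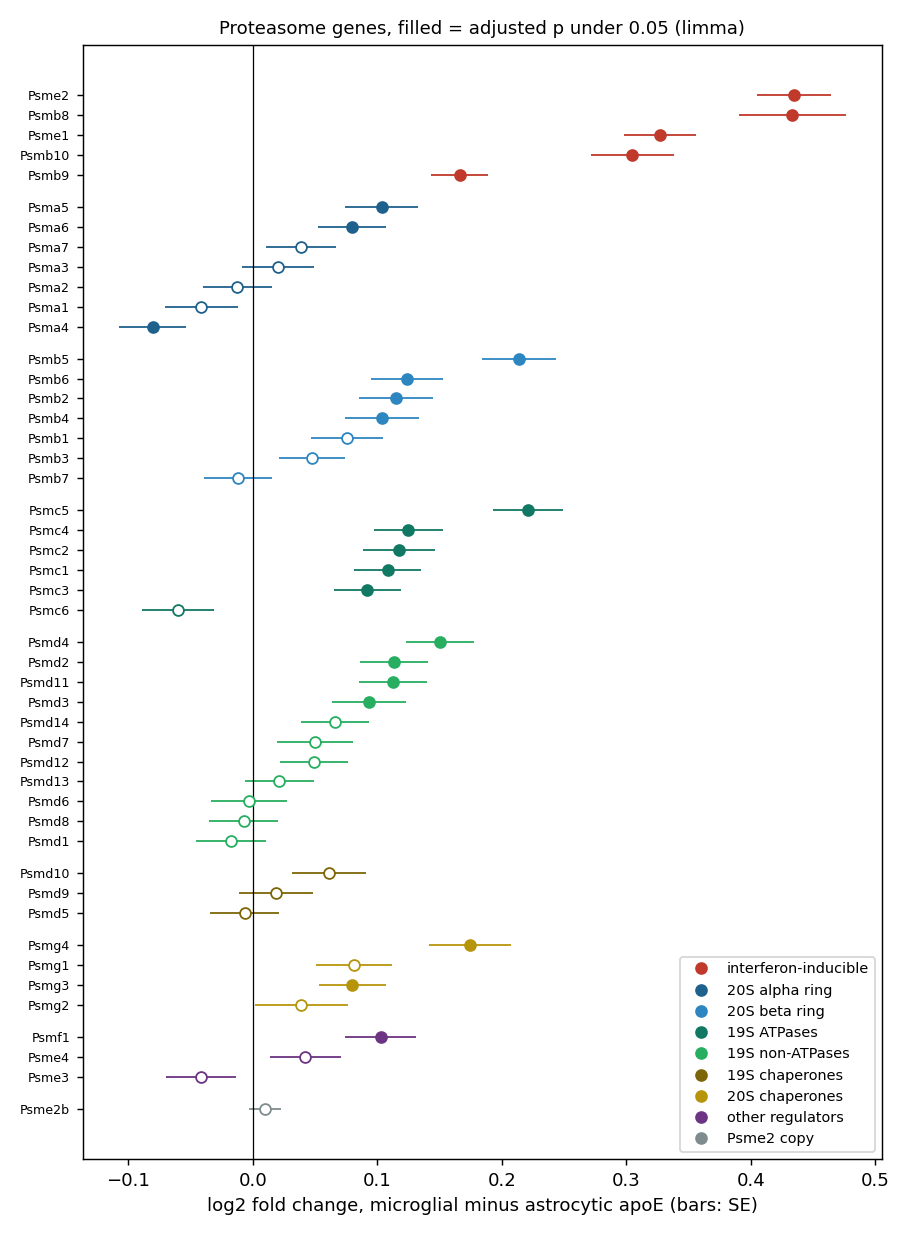
Log2 fold change of each of the 47 members, microglial minus astrocytic apoE (horizontal axis), with its SE as a bar, grouped and coloured by role. Filled points passed adjusted p under 0.05 in limma (23 higher, 1 lower) and open points did not (23). Of all genes tested, 13.0% were called higher and 11.8% lower. The inducible genes lie between 0.17 and 0.43, and all other members at or below 0.22.

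Over the 47 members, 23 rose and 1 fell, while 13.0% of all genes tested were called higher and 11.8% lower. Of these 24 calls, 15 were kept under all 13 alternatives, namely those of the 5 inducible genes, Psmb5, Psmb6, Psmc1, Psmc2, Psmc4, Psmc5, Psmd2, Psmd4, Psmd11 and Psmg4. The other 9 were lost under at least 1. Psmb2 and Psmf1 were lost without astrocytic replicate 1 (adjusted p = 0.059 and 0.073). Psma5 was lost without astrocytic replicate 2 (0.078) or microglial replicate 2. Psmb4 was lost without astrocytic replicate 1 or 2 or microglial replicate 2 (adjusted p up to 0.069), and Psmc3 without astrocytic replicate 1 or 2 or microglial replicate 3 (up to 0.069). Psma4, Psma6, Psmd3 and Psmg3 were each lost without astrocytic replicate 1, astrocytic replicate 2, microglial replicate 1 or microglial replicate 3, with adjusted p up to 0.15, 0.18, 0.15 and 0.11. Centring each library on its median also ended the calls of Psma6, Psmd3 and Psmg3. Equal sums without mitochondrial genes ended those of Psma6 (0.061) and Psmg3 (0.055), and equal sums of 2^value that of Psma4 (0.076). Testing without a filter on low values ended the calls of Psma4 (0.063) and Psma6 (0.066), as did the replicate block (0.058 and 0.061).

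Levels were compared between genes as the log2 value per kilobase of the transcript with the longest coding sequence. The constitutive 20S and 19S subunits lay within a range of 9.31 to 11.66 with astrocytic apoE, with Psmb3 the highest, followed by Psmb6. Psme1 and Psme2, at 9.58 and 9.48, ranked 31 and 32 of 47. Psmb10 ranked 40, and Psmb8 and Psmb9 ranked 45 and 46, at 5.39 and 5.16, above Psme2b alone. With microglial apoE the ranks of Psmb10, Psmb8 and Psmb9 were the same. With the union of all exons as the length, Psma6 ranked 1, Psmb6 ranked 6 and Psmb3 ranked 10 with astrocytic apoE. On that length the constitutive subunits reached down to 8.17 (Psmd11) with astrocytic apoE, and Psmb9 ranked 47, below Psme2b. With microglial apoE Psmd11 stood at 8.29, and Psmb9 ranked 46, above Psme2b.

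On that scale Psmb8 stood at 2.59% of the Psmb5 level with astrocytic and at 3.01% with microglial apoE. Psmb9 stood at 1.19% and 1.23% of Psmb6, and Psmb10 at 15.3% and 19.1% of Psmb7. Psme1 reached 76.3% and 98.5% of Psme3, and Psme2 71.1% and 98.9%. The gap to the constitutive gene was thus wide for Psmb8 and Psmb9 and narrower for Psmb10, whose counterpart Psmb7 is uncertain. The shares depend on the length used: with the union of all exons the Psmb8 share was 1.25% and 1.45% and the Psmb10 share 34.7% and 43.2%. The union also gave 42.5% and 54.9% for Psme1 and 42.9% and 59.7% for Psme2.

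**Figure D4:**
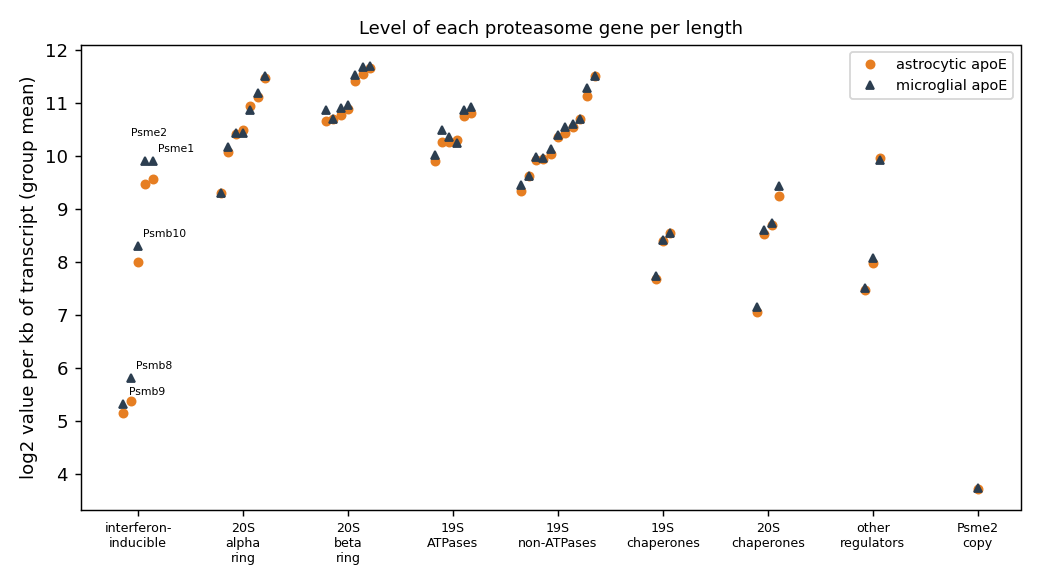
Group mean log2 value per kilobase of transcript (vertical axis) for each of the 47 members by role, with circles for astrocytic and triangles for microglial apoE. Psmb8 and Psmb9 lie below 6 in both groups, while the constitutive 20S and 19S subunits lie above 9.

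Other genes of the pathway were taken from lists chosen with earlier results of these data known. For reference to the counts in these lists, 13.0% of all genes tested were called higher and 11.8% lower. Of 18 tested proteasome partners, such as ubiquitin receptors and shuttle factors, 6 rose and 0 fell, with a median of 0.02. Nub1, which carries ubiquitin-like modifiers to the proteasome, rose by 0.23 ± 0.030 SE (adjusted p = 1.8e-06). Adrm1, the ubiquitin receptor Rpn13, rose by 0.16 ± 0.037 SE, and Ubqln4 (0.15) and Bag6 (0.10) rose too. Of 6 genes for assembly and transcription of proteasome genes, 2 rose and 1 fell. Nfe2l2, the gene of NRF2, rose 1.28-fold (0.36 ± 0.027 SE, adjusted p = 1.6e-10), and that call was kept under all 13 alternatives. Akirin2, which takes proteasomes into the nucleus, rose by 0.10 ± 0.033 SE (adjusted p = 0.028). Its call was lost with median centring (0.057), without the trend and robust options (0.072), without astrocytic replicate 1 (0.17) or 2 (0.16) and without microglial replicate 1 (0.063), 2 (0.10) or 3 (0.056). Ngly1, an enzyme that activates NRF1, fell by 0.10 on the log2 scale (adjusted p = 0.021). It no longer passed when astrocytic replicate 1 (0.090) or microglial replicate 3 (0.094) was left out. Nfe2l1, the gene of NRF1, had 0.07 (adjusted p = 0.055), and it passed without microglial replicate 2 (0.0073) and, of the other settings, with equal sums (0.025) and the filter of 50 (0.049).

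Of 7 genes of ubiquitin and its activating enzymes, Uba7 (0.14), the activating enzyme of ISG15, and Uba1 (0.07, adjusted p = 0.032) rose, and 0 fell. The call of Uba1 was lost under 8 of 13 alternatives, among them leaving out astrocytic replicate 1 (0.17) or 2 (0.11) or microglial replicate 1 (0.088) or 3 (0.13). Rps27a, which encodes ubiquitin fused to a ribosomal protein, had 0.05 ± 0.028 SE (adjusted p = 0.17). Of 16 interferon regulators and genes of the class I peptide pathway, 13 rose and 2 fell, with a median of 0.60 and a wide range. Irf9 rose 2.85-fold, B2m 2.53-fold and Stat2 2.61-fold. Tap1, the neighbour of Psmb9, rose 1.85-fold. Other members of the list lay below the median of the inducible subunits, among them Erap1 (0.32), Irf1 (0.24), Irf2 (0.23) and Tap2 (0.20), and Calr and Canx fell by 0.11 on the log2 scale. The difference in size between these genes and the inducible subunits was not tested.

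The libraries held transcripts of other cells, and in bulk samples fewer cells of a type and less RNA per cell cannot be told apart. Beside the marker counts below, 13.0% of all genes tested were called higher and 11.8% lower. All 10 neuronal markers passed the filter, with 2 higher (Gad1 and Gad2) and 3 lower (Map2, Slc17a6 and Rbfox3), and summed to 61263 to 61884 with astrocytic and 60451 to 61587 with microglial apoE on the 2^value scale. The call of Rbfox3 was lost without each of the 6 libraries in turn (adjusted p 0.052 to 0.13), that of Slc17a6 without astrocytic replicate 1 or 2 or microglial replicate 2 or 3 (0.055 to 0.14) and that of Map2 without astrocytic replicate 2 (0.051). Microglial markers, of cells rich in immunoproteasome, summed to 605.1 to 625.2 and to 638.7 to 639.5. Of these 14 markers 10 were tested, 1 was higher (C1qc, 0.06, adjusted p = 0.039) and 0 were lower, Siglech was listed at 0 in all libraries, and P2ry12, Tmem119 and Trem2 were below the filter in both groups. The C1qc call was lost without each library other than microglial replicate 2 (adjusted p 0.063 to 0.19). Of 10 astrocyte markers 7 fell and 1 rose, and their sum was 58912 to 59674 with astrocytic and 50903 to 51764 with microglial apoE. All 6 markers of dividing cells fell, with sums of 1890 to 1951 and 1180 to 1193. Oligodendrocyte markers had 1 higher and 2 lower of 8, and 1 of 6 endothelial markers was tested and was not called. The part of these shifts in the proteasome results was not tested.

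How deeply each library was sequenced cannot be read from these values. Summed as 2^value, libraries reached 18060473 to 18337624, and mitochondrially encoded genes took 6.46% to 7.92% of it with astrocytic and 5.71% to 5.77% with microglial apoE. Astrocytic replicate 3 was the astrocytic library closest to the microglial group, with median absolute differences of 0.0425 to 0.0465 against 0.0483 to 0.0563 for the other two. Of all called genes 52.4% were higher as deposited, 34.8% after median centring (1478 higher, 2765 lower) and 65.6% with equal sums (2516 higher, 1318 lower). These scalings moved each log2 fold change by -0.018 and 0.014.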

How the data were processed

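Each deposited table holds one log2 value per gene symbol for one library, without a header. DESeq2, featureCounts, HISAT2, FastQC and build GRCm38 are listed, without roles, in the submitters' processing notes. For versions, annotation and strand setting, nothing is given in the sources used here. From the values, 21031 symbols stand at 0 in every library and 0 in some only, and weak genes vary little between libraries. Such values could come from a regularized logarithm, which would understate SEs and fold changes of weak genes, but no source states the transformation.

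Values were tested unchanged with limma 3.58.1 (trend and robust options, R 4.3.3) over the 15055 genes at or above the log2 of 10 in 3 libraries, with Benjamini-Hochberg adjustment over all of them. The procedure was tested on simulated data. Members, lists, named genes and tests were chosen with earlier results of these data known. Named genes are the members and up to 4 per other list with the smallest p, some of which are not reported here; Tap1, Nek6 and Gm20496 (named for shared exon bases), Rbfox3, Erap1, Irf1, Irf2, Tap2, Calr and Canx were chosen after their values were seen. Coordinates and lengths are from GENCODE M21 (GRCm38, 1-based), and 14 members share exon bases with another gene, so their values are less certain. Promoters are from RefSeq (GRCm38.p6). Alternatives were 2 filters, 3 scalings, a plain limma fit, a replicate block and leaving out each library. Python 3.11.15, numpy 2.4.6, pandas 2.3.3 and matplotlib 3.10.9 were used.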

Additional observations from a re-analysis of the deposited data

How the results depend on the processing

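Of the values of single members under alternatives, 566 kept their side of the threshold, 36 lost a call and 8 gained one (Psmb1, Psmc6, Psmd14 or Psmg1). Of these values, 0 reversed the direction of a member called in either fit. Some members not called in either fit changed sign near 0, such as Psmd6, at -0.003 as deposited and 0.011 with equal sums of 2^value. The 5 inducible calls were kept throughout, with a median log2 fold change of 0.31 to 0.34. Calls among all genes ranged from 1368 to 2373 higher and 1188 to 2168 lower when 1 library was left out, and 2765 were lower with median centring. The number of members called lower, 1 as deposited, was 0 with no filter on low values, 0 with equal sums of 2^value and 0 with the replicate block, and 0 to 2 without 1 library. Rising 20S subunits numbered 3 to 7 and rising members 16 to 24 without 1 library. The 19S median of 0.092 was 0.074 with median centring and 0.106 with equal sums. By construction these scalings shift every log2 fold change alike, by -0.018 and 0.014. The median was 0.075 to 0.097 without 1 library, and the cause of that range was not tested. Equal sums without mitochondrial genes, added after seeing the data, gave 21 rising members.

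Deviations of same-numbered libraries correlated at 0.039, -0.122 and -0.186, and those of differently numbered ones at -0.12 to 0.176. With 3 libraries per group these values cannot decide whether the replicate numbers pair the samples. With the replicate block 22 members were higher, 5 of them inducible, 5 of 14 in the 20S and 9 of 17 in the 19S, and all genes gave 1778 higher and 1609 lower. For the 5 ratios over counterparts the block leaves the mean difference unchanged by construction, and its exact sign-flip p of 0.25 is the smallest that 3 pairs allow, so neither bears on their stability. Depth is unknown, so no limit for weak genes such as Psmb9 can be given.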
